A study of Mus musculus with 31 samples.

Results

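The circadian clock genes described here are 10 mouse genes, Arntl, Npas2, Clock, Cry1, Per1, Per2, Per3, Nr1d1, Nr1d2 and Dbp, chosen by symbol from a table of 55487 genes measured in 31 kidneys. All 10 were present in the table, and all 10 passed the filter on low counts, which left 19268 genes for testing. The kidneys came from male mice on the B6 background, and each library, titled by a number such as S_609_22, was read as 1 animal. The WT PBS group (8 animals) had wild-type Nbl1 and received phosphate-buffered saline (PBS), and the WT cisplatin group (8 animals) received the platinum drug cisplatin. The other genotype is named HET for Nbl1 in the labels, with 7 animals in the HET PBS group and 8 in the HET cisplatin group. Treatment started at 8 weeks of age and ran for 4 weeks in every group, and kidneys were taken 3 days after it, at a stated age of 11 weeks, although 8 weeks and 4 weeks of treatment come to more. The sources used here give no kind of Nbl1 allele, no cisplatin dose and no hour of the day at which kidneys were taken. Since these genes cycle over the day, a difference in hour between animals cannot be told apart from a difference between groups.

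The molecular clock is a feedback loop that runs in nearly every cell, the tubule cells of the kidney included. ARNTL (also called BMAL1) pairs with CLOCK or with its relative NPAS2 and activates genes that carry E-box motifs, among them Per, Cry, Nr1d1, Nr1d2 and Dbp. PER and CRY proteins accumulate and shut this activation off, while NR1D1 and NR1D2 (the REV-ERB receptors) repress Arntl and compete at the RORE motif with the activating ROR receptors. DBP is an output factor of the loop that activates genes through D-box motifs. In mouse tissues Arntl and Npas2 RNA therefore peak at a different time of day from Dbp and Nr1d1 RNA, and Clock RNA is known to vary little.

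Short promoter windows were searched for motifs, among them those that factors of the loop can bind, and the windows with a match are shown. They come from RefSeq on build GRCm38.p6 and run from 250 bases before to 50 bases after an annotated transcription start. Windows were found for 9 of the 10 genes, in 13 entries. An entry for Per2 was not found. The first 4 lines below hold the second Arntl entry at chr7:113207261-113207560 (plus strand), the Cry1 entry at chr10:85185005-85185304 (minus strand), the first Per1 entry at chr11:69098699-69098998 (plus strand) and the Per3 entry at chr4:151044616-151044915 (minus strand). The last line holds the Nr1d1 entry at chr11:98775328-98775627 (minus strand). Capitals mark motif matches on either strand.
Arntl: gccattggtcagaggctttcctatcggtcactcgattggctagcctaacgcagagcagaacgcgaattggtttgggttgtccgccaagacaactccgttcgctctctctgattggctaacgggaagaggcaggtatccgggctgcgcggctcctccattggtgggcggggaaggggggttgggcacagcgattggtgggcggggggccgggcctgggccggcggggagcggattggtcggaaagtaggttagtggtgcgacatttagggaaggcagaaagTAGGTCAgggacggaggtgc
Cry1: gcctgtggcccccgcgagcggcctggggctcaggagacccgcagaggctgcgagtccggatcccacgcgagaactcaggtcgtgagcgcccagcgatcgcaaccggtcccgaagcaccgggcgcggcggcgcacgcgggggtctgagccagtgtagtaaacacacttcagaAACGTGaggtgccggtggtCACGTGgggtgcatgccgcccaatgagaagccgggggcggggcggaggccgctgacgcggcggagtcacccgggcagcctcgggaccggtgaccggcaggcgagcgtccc
Per1: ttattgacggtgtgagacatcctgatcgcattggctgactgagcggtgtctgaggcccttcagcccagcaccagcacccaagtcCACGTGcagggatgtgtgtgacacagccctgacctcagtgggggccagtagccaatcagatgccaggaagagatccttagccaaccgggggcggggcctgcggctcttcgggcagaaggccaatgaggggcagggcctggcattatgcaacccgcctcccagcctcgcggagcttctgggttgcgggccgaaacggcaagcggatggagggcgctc
Per3: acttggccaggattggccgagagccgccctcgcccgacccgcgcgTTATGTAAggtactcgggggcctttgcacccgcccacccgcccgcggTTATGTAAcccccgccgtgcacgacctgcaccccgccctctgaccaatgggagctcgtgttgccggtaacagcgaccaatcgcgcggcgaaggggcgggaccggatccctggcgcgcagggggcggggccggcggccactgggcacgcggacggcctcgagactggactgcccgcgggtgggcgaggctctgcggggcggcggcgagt
Nr1d1: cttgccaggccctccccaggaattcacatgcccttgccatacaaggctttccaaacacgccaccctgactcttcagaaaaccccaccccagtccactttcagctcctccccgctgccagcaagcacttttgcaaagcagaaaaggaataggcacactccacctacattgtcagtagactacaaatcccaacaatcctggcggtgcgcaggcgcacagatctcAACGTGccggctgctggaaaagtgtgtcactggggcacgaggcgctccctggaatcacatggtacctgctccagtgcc
In Arntl the capitals mark the RORE core TAGGTCA, which starts 31 bases into the transcript. Cry1 holds an E-box CACGTG that starts at -60. It also holds the variant E-box AACGTG at -79, which reads CACGTT on the other strand. Per1 holds an E-box at -166, and Nr1d1 holds the variant E-box at -28. Per3 holds the D-box TTATGTAA at -205 and again at -158. No match overlapped another. The windows of Npas2, Clock, Nr1d2 and Dbp held none of the motifs searched, and no window held TGACGTCA (a cyclic AMP response element) or ACANNNTGT (the core of a glucocorticoid response element). Over 32851 mouse promoter windows of the same length, the share that held a match was 7.15% for CACGTG, 4.68% for CACGTT, 2.32% for TTANGTAA, 2.61% for TAGGTCA, 1.79% for TGACGTCA and 6.85% for ACANNNTGT. These matches describe letters in the window and do not show binding.

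Library totals were 29.85 to 37.3 M counts in WT PBS, 24.65 to 28.86 M counts in WT cisplatin, 29.23 to 36.7 M counts in HET PBS and 26.87 to 31.92 M counts in HET cisplatin. In 5 libraries the Nbl1 level went against the label: the library labelled WT PBS 6 had 3.71 CPM (counts scaled to a common library size), where its group otherwise spanned 5.83 to 7.9 CPM, and HET PBS 1 and 6 had 0.106 and 0.434 CPM, and HET cisplatin 3 and 4 had 1.08 and 0.861 CPM. A sixth, WT cisplatin 6, had 10.7 CPM, where its group otherwise spanned 18.1 to 26.2 CPM and HET cisplatin reached 13.9 CPM. The kind of allele is not given, so these labels could not be settled. For the clock genes, results are also given without the 5 libraries where that changes a call, and without all 6 the same calls of clock genes were made as without the 5. Changes in the counts of other lists without the 5 are given in the last section. Kidney markers were present in every group, and their composition changed with treatment. All 12 proximal tubule markers fell under cisplatin in each genotype, and their summed TPM (a unit that also corrects for gene length) was 3500 to 4280 in WT PBS, 356 to 2040 in WT cisplatin, 3600 to 3950 in HET PBS and 376 to 1640 in HET cisplatin. None of the 12 had a median of 0 in any group. In bulk tissue, fewer cells of a type and less RNA per cell cannot be told apart. Of 8 markers of several kidney segments, 1 rose and 6 fell in each genotype. All 5 markers of injured tubule rose in each genotype, and their summed TPM was 207 to 267 in WT PBS, 3610 to 4640 in WT cisplatin, 205 to 302 in HET PBS and 1620 to 4140 in HET cisplatin. Of the 10 macrophage markers, the WT comparison called 8 higher and 2 lower, and the HET comparison 7 higher and 2 lower. The lower ones were Csf1r (-0.71 and -0.84 on the log2 scale) and Ptprc (-0.39 and -0.42), and Ptprc was called in neither genotype among animals S_600_22 to S_629_22. Their summed TPM was 37 to 52.6, 82.7 to 214, 34.8 to 58.4 and 25.9 to 155 in the same order. Of 4 fat markers tested, 2 rose in WT and 3 in HET, and 0 were called among animals S_600_22 to S_629_22. The summed TPM of 5 fat markers was 0.52 to 26.2 in WT PBS, 13.5 to 164 in WT cisplatin, 1.13 to 24.2 in HET PBS and 6.3 to 98.4 in HET cisplatin. The part of these cell types in the results below was not tested. The library HET cisplatin 4 also held adrenal gland transcripts, at a summed 279 TPM against at most 1.06 TPM in every other library.

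Among the 10 genes, levels corrected for length were highest in WT PBS kidneys for Nr1d2 at 33.2 ± 6.46 TPM (SD, n = 8), Dbp at 29.97 ± 9.84 TPM and Per1 at 14.1 ± 11.2 TPM. Nr1d1 at 12.9 ± 6.27 TPM and Clock at 9.29 ± 0.582 TPM followed, then Per2 at 7.29 ± 2.41 TPM, Per3 at 6.45 ± 1.41 TPM and Cry1 at 2.27 ± 0.96 TPM. Arntl at 0.973 ± 0.667 TPM and Npas2 at 0.378 ± 0.155 TPM were lowest. Of neighbours in this order, the means of Nr1d2 and Dbp, of Per1 and Nr1d1, of Nr1d1 and Clock, of Clock and Per2, of Per2 and Per3, and of Arntl and Npas2 differed by less than the larger SD. In HET cisplatin kidneys the mean levels were 27.9 ± 5.02 TPM (SD, n = 8) for Nr1d2, 25.4 ± 7.02 TPM for Per1, 14.6 ± 0.756 TPM for Clock and 10.1 ± 3.77 TPM for Dbp. The mean level of Arntl there was 5.38 ± 1.91 TPM, beside 5.41 ± 1.02 TPM for Cry1 and 5.33 ± 1.89 TPM for Per3. Clock had means of 14.66 ± 0.937 TPM in WT cisplatin and 9.91 ± 0.699 TPM in HET PBS (SD). Within each genotype it was thus higher in TPM under cisplatin than under PBS, which its CPM values below do not show. The TPM scale moved the median of all genes upward, as given below. All further levels are in CPM, which compares 1 gene across libraries.

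Arntl (chr7:113207465-113314126, plus strand, GRCm38, protein coding like all 10), the core activator, was low in most PBS kidneys and rose under cisplatin in WT. In WT PBS it had a lowest value of 1.13, a median of 3.78 and a highest value of 11.8 CPM, and in WT cisplatin 8.85, 13.1 and 16.4 CPM. In HET PBS the lowest, median and highest values were 2.60, 11.9 and 22.9 CPM, and in HET cisplatin 10.9, 15.8 and 28.7 CPM. The WT groups overlapped through 1 PBS kidney at 11.8 CPM, while the other 7 lay below every cisplatin kidney. HET PBS kidneys split into 3 at 2.60 to 4.33 CPM and 4 at 11.9 to 22.9 CPM, and the upper 4 lay within the range of HET cisplatin. In WT, Arntl rose by 1.55 on the log2 scale (SE 0.392, edgeR quasi-likelihood adjusted p = 0.000964). In HET the difference was 0.52 (SE 0.386, adjusted p = 0.257), and it did not pass the test. The HET value was called with limma voom (0.89, adjusted p = 0.0311). It was also called under library totals (0.91, edgeR adjusted p = 0.0347) and on the TPM scale (0.90, limma adjusted p = 0.0023). The latter 2 scalings moved the median of all genes upward, as given below.

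Npas2 (chr1:39193731-39363236, plus strand), the partner that can stand in for CLOCK, had a lowest value of 1.09, a median of 2.14 and a highest value of 3.84 CPM in WT PBS, and 2.91, 4.36 and 7.43 CPM in WT cisplatin. In HET PBS these values were 1.80, 3.06 and 8.98 CPM, and in HET cisplatin 2.98, 5.91 and 8.90 CPM. The groups overlapped in both genotypes, and the highest HET PBS kidney exceeded every cisplatin kidney. Npas2 rose in WT by 1.04 on the log2 scale (SE 0.30, adjusted p = 0.00322), and in HET the difference was 0.31 (SE 0.298, adjusted p = 0.377). Clock (chr5:76209868-76304792, minus strand), the other partner of ARNTL, had medians of 102.5 CPM in WT PBS, 105.7 in WT cisplatin, 106.2 in HET PBS and 105.6 in HET cisplatin. Its values ran from 90.4 to 114.5, 99.97 to 124.6, 99.98 to 135.7 and 99.96 to 120.2 CPM in those groups, which overlapped. The difference was 0.07 in WT (SE 0.0624, adjusted p = 0.355). For HET it was -0.04 (SE 0.0646, adjusted p = 0.618), and neither passed the test.

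Of the repressors, Cry1 (chr10:85131700-85185064, minus strand) had a lowest value of 4.67, a median of 7.69 and a highest value of 18.45 CPM in WT PBS, and 11.25, 15.0 and 17.1 CPM in WT cisplatin. In HET PBS these were 7.94, 16.7 and 19.8 CPM, and in HET cisplatin 13.15, 17.2 and 19.2 CPM. Cisplatin kidneys of both genotypes lay in a narrow band, and PBS kidneys reached from below it to just above its top. Cry1 rose in WT by 0.62 on the log2 scale (SE 0.214, adjusted p = 0.0122), and in HET the difference was 0.20 (SE 0.219, adjusted p = 0.445). Under library totals, which moved the median of all genes upward, the HET value was called (0.60, edgeR adjusted p = 0.0135).

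Per1 (chr11:69095217-69109960, plus strand) responds to many acute signals besides the clock and was the most scattered member in WT PBS. Its lowest, median and highest values were 19.4, 74.7 and 224.6 CPM in WT PBS, 64.3, 127.2 and 164.8 CPM in WT cisplatin, 37.6, 87.3 and 171.4 CPM in HET PBS, and 59.3, 112.3 and 136.4 CPM in HET cisplatin. Each cisplatin range lay inside the PBS range of its genotype. Neither the WT difference, 0.48 (SE 0.358, adjusted p = 0.245), nor the HET difference, -0.01 (SE 0.37, adjusted p = 0.981), passed the test. Per1 in WT was called without the library WT PBS 5, the highest of its group (0.88, adjusted p = 0.0223), and with limma voom (0.99, adjusted p = 0.0171).

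Per2 (chr1:91415982-91459324, minus strand), which is needed with Per1 for a stable rhythm, also overlapped between groups. Its medians were 72.6 CPM in WT PBS, 60.7 CPM in WT cisplatin, 69.7 CPM in HET PBS and 51.8 CPM in HET cisplatin. Neither the WT difference, -0.18 (SE 0.173, adjusted p = 0.379), nor the HET difference, -0.39 (SE 0.179, adjusted p = 0.0589), passed the test. The HET value lay close to the threshold and was called when any of 6 libraries was left out (WT PBS 1 or 6, HET PBS 4 or 7, HET cisplatin 3 or 7) or with DESeq2 (-0.41, adjusted p = 0.043). Per3 (chr4:151003652-151044665, minus strand), the PER protein with the lesser role in keeping the rhythm, had medians of 53.1 and 39.3 CPM in WT PBS and cisplatin and 46.2 and 32.1 CPM in HET PBS and cisplatin. Per3 fell by 0.51 on the log2 scale in HET (SE 0.164, adjusted p = 0.00862), and the WT difference of -0.32 (SE 0.158, adjusted p = 0.077) did not pass. The Per3 call in HET was lost without the 5 libraries that went against their Nbl1 label (-0.38, adjusted p = 0.10). It was also lost under library totals and on the TPM scale. The HET means of Per3 were 5.31 ± 1.16 TPM under PBS and 5.33 ± 1.89 TPM under cisplatin (SD). The WT value was called without WT PBS 6 (adjusted p = 0.0495), WT cisplatin 8 (0.045) or HET cisplatin 5 (0.0481).

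The REV-ERB receptor Nr1d2 (chr14:18204054-18239127, minus strand) fell in both genotypes. Its lowest, median and highest values were 133, 187 and 220.5 CPM in WT PBS, and 104.1, 129.8 and 149.8 CPM in WT cisplatin. In HET PBS they were 106.4, 167.5 and 229 CPM, and in HET cisplatin 86.9, 105.2 and 147 CPM. In WT, 7 of 8 PBS kidneys lay above every cisplatin kidney. Nr1d2 fell by 0.53 on the log2 scale in WT (SE 0.134, adjusted p = 0.000943) and by 0.64 in HET (SE 0.138, adjusted p = 0.000197), but it was at 0.0095 and -0.02 on the TPM scale, where it was called in neither. Nr1d1 (chr11:98767932-98775333, minus strand) varied more, with lowest, median and highest values of 22.9, 47.4 and 91.9 CPM in WT PBS and 19.6, 40.2 and 47.7 CPM in WT cisplatin. In HET they were 12.4, 30.5 and 49.6 CPM under PBS and 13.5, 22.9 and 53.1 CPM under cisplatin. Neither the WT difference, -0.49 (SE 0.292, adjusted p = 0.149), nor the HET difference, -0.29 (SE 0.304, adjusted p = 0.421), passed the test. Nr1d1 shares 263 exon bases, 8.55% of its exons, with Thra on the opposite strand, and no source here gives the strand setting of the counting, so reads there cannot be told apart.

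Dbp (chr7:45705088-45710203, plus strand), the output factor, had the deepest drop of the 10 genes in both genotypes. Its lowest, median and highest values were 28.9, 76.8 and 102.1 CPM in WT PBS, and 15.35, 24.2 and 40.15 CPM in WT cisplatin. In HET PBS they were 18.0, 28.1 and 83.4 CPM, and in HET cisplatin 9.44, 17.5 and 25.9 CPM. In WT, 7 of 8 PBS kidneys lay above all cisplatin kidneys, and in HET PBS 3 kidneys at 71.25 to 83.4 CPM stood apart from 4 at 18.0 to 28.1 CPM. Dbp fell by 1.51 on the log2 scale in WT (SE 0.314, adjusted p = 0.000105) and by 1.37 in HET (SE 0.324, adjusted p = 0.000522). On the TPM scale the HET value was -0.64 (adjusted p = 0.0678). Dbp shares 539 exon bases, 18.0% of its exons, with Sphk2 on the opposite strand.

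**Figure D1:**
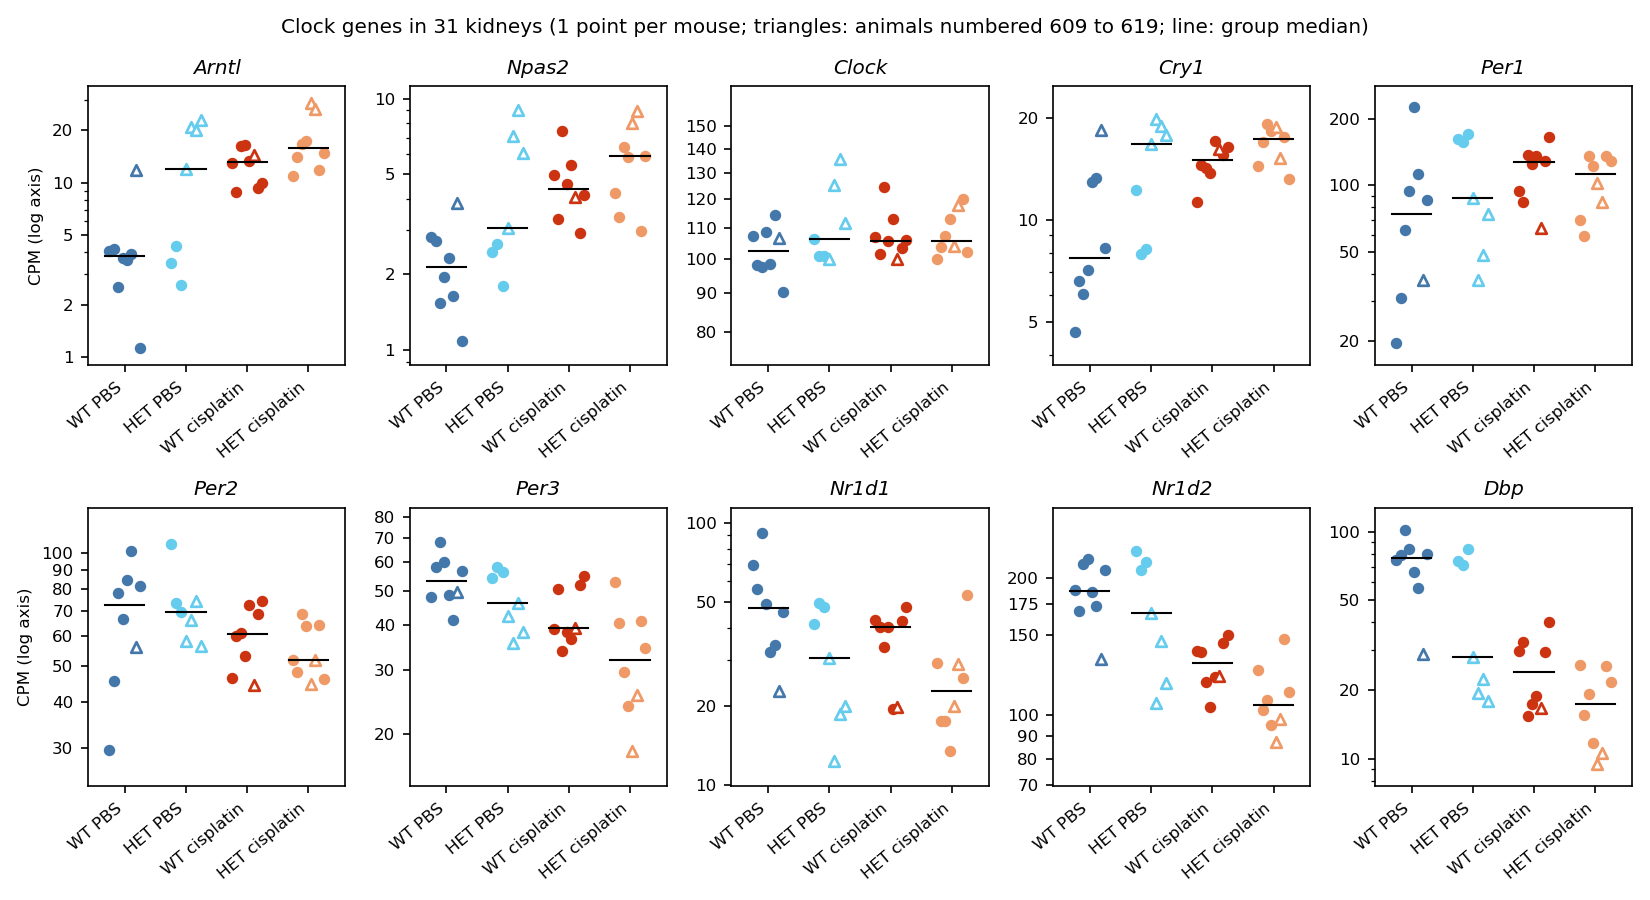
CPM on a log axis for the 10 clock genes in 31 kidneys, by group, with 1 point per animal, a line at the group median and triangles for animals S_609_22 to S_619_22. Arntl medians were 3.78 CPM in WT PBS and 13.1 CPM in WT cisplatin, Dbp medians were 76.8 and 24.2 CPM, and PBS kidneys drawn as triangles sit with the cisplatin kidneys in both genes.

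In all, the WT comparison of cisplatin with PBS called 3 of the 10 genes higher (Arntl, Npas2, Cry1), where 33.6% of all tested genes were called higher, and 2 lower (Nr1d2, Dbp), where 29.6% were called lower. The HET comparison called 0 higher, where 31% of all genes were, and 3 lower (Per3, Nr1d2, Dbp), where 28% were. The WT counts and the HET count of lower genes lie near these shares, and the HET count of higher genes lies below its share. The median log2 change over the 10 genes was -0.06 in WT and -0.17 in HET, against 0.06 over all tested genes in both. The cisplatin and PBS groups overlapped for all 10 genes in both genotypes, while 31.8% of all tested genes had no overlap in WT and 26% in HET. The fold changes above use scaling by trimmed means (TMM). Scaling by library totals moved the median of all genes to 0.455 in WT and 0.464 in HET, and the TPM scale moved it to 0.281 and 0.294. Relative to the median under library totals, Arntl changed by 1.48 and 0.44, Dbp by -1.57 and -1.42, Nr1d2 by -0.59 and -0.70, and Clock by 0.0047 and -0.10 in WT and HET. Without that centring, library totals called Clock higher in both genotypes, at 0.46 (adjusted p = 1.15e-08) and 0.36 (adjusted p = 1.7e-06), and Nr1d2 was not called in either (-0.13 and -0.23).

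**Figure D2:**
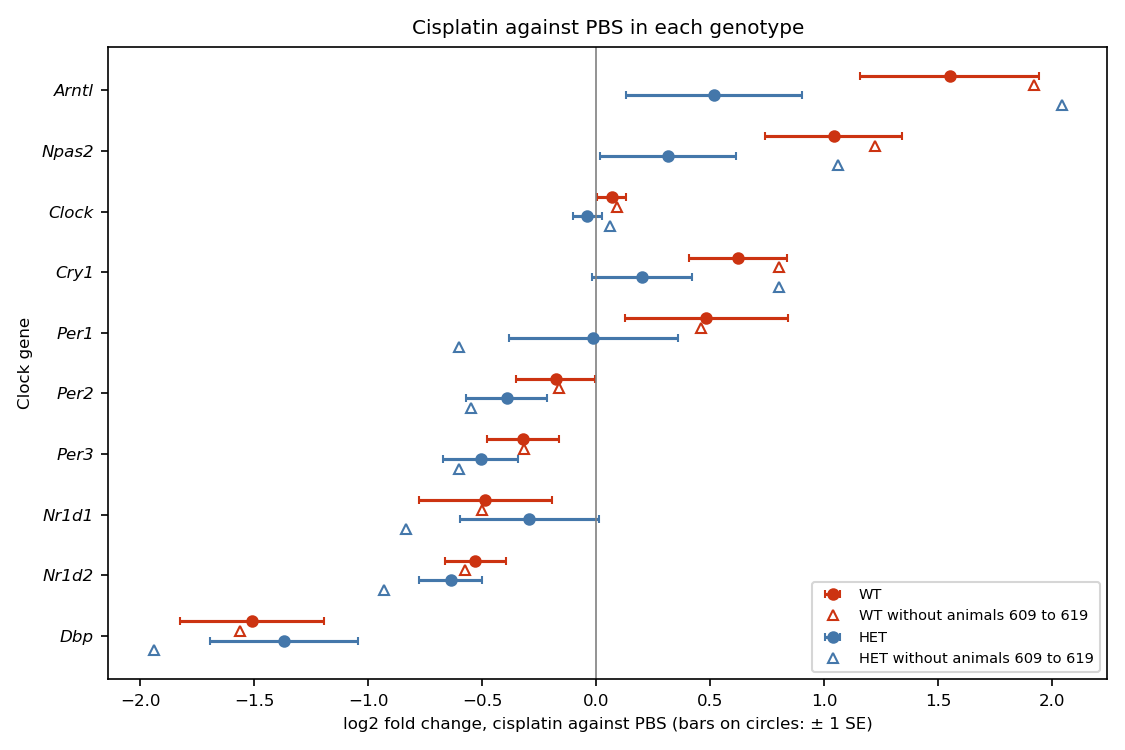
Log2 fold change of cisplatin against PBS (x axis) for each clock gene, in WT and HET, with all animals (filled circles, bars ± 1 SE) and without animals S_609_22 to S_619_22 (open triangles, with no error since these animals were chosen by their clock gene values). In HET, Arntl moved from 0.52 with all animals to 2.04 without them, while Dbp lay at -1.37 and -1.94.

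The spread between animals of 1 group was larger for the clock genes than for most genes, above all under PBS. The median SD of log2 CPM over the 10 genes was 0.566 in WT PBS, 0.318 in WT cisplatin, 0.665 in HET PBS and 0.483 in HET cisplatin. Over the 15528 tested genes with a mean of at least 1 CPM, the median SD was 0.157, 0.19, 0.159 and 0.213 in the same groups. Per3 went the other way, with a larger SD under cisplatin than under PBS (0.26 against 0.228 in WT, 0.503 against 0.278 in HET). For Dbp in WT the SD was similar under cisplatin and PBS (0.528 and 0.555). Arntl had a highest value 10.5 times its lowest in WT PBS and 8.82 times in HET PBS, against 1.85 times in WT cisplatin and 2.63 times in HET cisplatin. Its SD exceeded that of 98.8% of these 15528 genes in WT PBS and 99.5% in HET PBS. Per1 (99.2% and 98.8%), Dbp (95.3% and 99%) and Nr1d1 (96.9% and 98.2%) were also among the most variable of them in the PBS groups, while Clock exceeded 32.1% and 53.7% of them. These percentages describe the libraries and carry no test.

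Animal numbers in the library titles lined up with the levels of several members. Among the 15 PBS kidneys, the 5 from animals S_609_22 to S_619_22 (1 WT and 4 HET) had Arntl at 11.8 to 22.9 CPM, and the other 10 had 1.13 to 4.33 CPM. Dbp was 18.0 to 28.9 CPM in these 5 and 56.6 to 102.1 CPM in the other 10. The stretch of numbers was chosen after these values were seen, so they are a description with no test. Npas2 (3.06 to 8.98 against 1.09 to 2.81 CPM), Cry1 (16.7 to 19.8 against 4.67 to 13.3 CPM), Nr1d1 (12.4 to 30.5 against 32.25 to 91.9 CPM) and Nr1d2 (106.4 to 167.5 against 169.2 to 229 CPM) were separated in the same way. Per1 (37.55 to 87.3 against 19.4 to 224.6 CPM), Per2 (56.0 to 74.4 against 29.65 to 106.1 CPM), Per3 (35.7 to 49.6 against 41.4 to 68 CPM) and Clock (99.98 to 135.7 against 90.4 to 114.5 CPM) overlapped. Among cisplatin kidneys, 3 animals fell in the stretch, with Arntl at 14.4 to 28.7 CPM against 8.85 to 17.4 CPM in the other 13, and Dbp at 9.44 to 16.6 against 11.8 to 40.15 CPM. How the numbers relate to the time of collection is not stated, and since 4 of 7 HET PBS kidneys but 1 of 8 WT PBS kidneys fall in the stretch, the stretch and the groups are partly confounded.

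**Figure D3:**
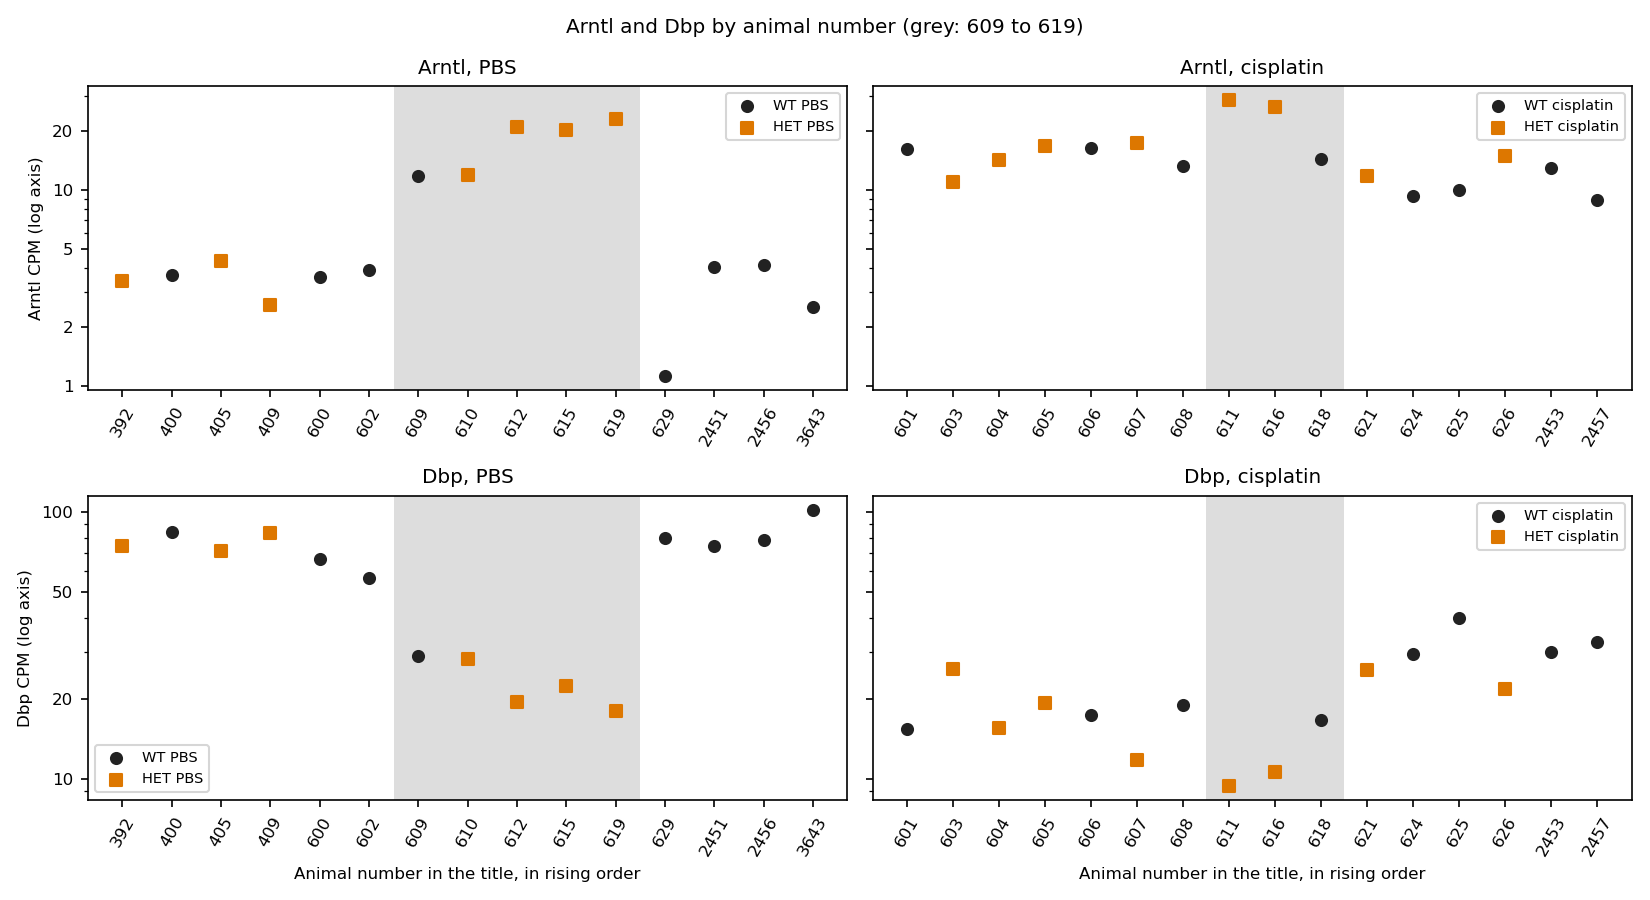
CPM of Arntl (top) and Dbp (bottom) on log axes, with animals in rising order of the number in their title (x axis), PBS at left and cisplatin at right, WT as circles and HET as squares. In the grey band, S_609_22 to S_619_22, the 5 PBS kidneys have Arntl at 11.8 to 22.9 CPM and Dbp at 18.0 to 28.9 CPM, outside the range of the other 10.

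The HET values of cisplatin against PBS moved more than the WT values when these animals were left out. They were chosen for their clock gene levels, so leaving them out lowers Arntl and raises Dbp in the PBS groups by construction, and the values without them are a description with no test. Without animals S_609_22 to S_619_22, the log2 difference for Arntl was 1.92 in WT and 2.04 in HET, and that for Dbp was -1.56 and -1.94. In HET, Npas2 was then at 1.06, Cry1 at 0.80 and Nr1d1 at -0.835. When only animals S_600_22 to S_629_22 were kept, all 4 remaining HET PBS kidneys were in the stretch, and 0 members were called in HET: Arntl was at -0.11 (adjusted p = 0.824) and Dbp at -0.33 (adjusted p = 0.371). In WT the same restriction gave Arntl 1.38 (adjusted p = 0.00745) and Dbp -1.34 (adjusted p = 0.0011), and Cry1 was no longer called (0.23, adjusted p = 0.206).

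Genotype alone called none of the 10 genes. Over all tested genes, 0% were called between HET and WT under PBS (968 had an unadjusted p under 0.05, and DESeq2 called 3 higher and 2 lower), 0.00519% under cisplatin (1 gene, with 1066 at an unadjusted p under 0.05), and 0% for the interaction, the HET response to cisplatin minus the WT response (1079 at an unadjusted p under 0.05, and DESeq2 called 0). Under PBS, the HET minus WT difference was 1.51 on the log2 scale for Arntl (SE 0.401, 95% interval 0.721 to 2.29, adjusted p = 0.58), 1.04 for Npas2 (adjusted p = 0.67), 0.59 for Cry1 (adjusted p = 0.778), -0.67 for Nr1d1 (adjusted p = 0.942) and -0.66 for Dbp (adjusted p = 0.983). Intervals here are not adjusted for the number of genes tested. The edgeR unadjusted p of these differences was 0.000722, 0.00209, 0.0122, 0.0357 and 0.0483 in that order. As a description with no test, without animals S_609_22 to S_619_22 these differences were 0.08 for Arntl, 0.20 for Npas2, 0.17 for Cry1, -0.21 for Nr1d1 and -0.02 for Dbp. Under cisplatin, Arntl differed by an amount between -0.25 and 1.20 and Dbp by one between -1.13 and 0.10 (95% intervals). For Per3 the interval lay below 0, at -0.682 to -0.0603 (difference -0.37, edgeR unadjusted p = 0.0259, adjusted p = 0.874). The interaction was -1.03 for Arntl (95% interval -2.10 to 0.03, adjusted p = 0.928), and, as a description, 0.12 without animals S_609_22 to S_619_22. These comparisons share their PBS groups, so the WT and HET responses and the genotype difference under PBS are not separate results.

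Kidneys with more Arntl tended to have less Dbp, and the difference between the log2 values places each library on 1 scale. The log2 CPM of Arntl minus that of Dbp was -6.07 to -1.29 in WT PBS (median -4.21), -1.99 to 0.07 in WT cisplatin (median -0.86), -4.97 to 0.35 in HET PBS (median -1.23) and -1.24 to 1.6 in HET cisplatin (median -0.18). It serves to compare libraries, not the levels of the 2 genes. Arntl was related to the other 9 genes within each group, 36 relations in all, with exact permutation tests and Benjamini-Hochberg adjustment. HET PBS kidneys formed 2 clusters, of 3 and 4 kidneys, so no correlation is given there. In WT PBS, Npas2 followed Arntl (r = 0.906, rho = 0.881, exact permutation adjusted p = 0.0105 and 0.0435), with r = 0.693 without the 2 kidneys farthest from the median of Arntl, 1 of them S_609_22. Dbp did not pass there (r = -0.767, rho = -0.619, exact permutation adjusted p = 0.0891 and 0.23). In WT cisplatin, Per3 (r = -0.91), Nr1d2 (r = -0.856) and Dbp (r = -0.865) ran against Arntl (exact permutation adjusted p = 0.0341, 0.0341 and 0.0345), with rho of -0.738, -0.81 and -0.81 (adjusted p = 0.108, 0.0779 and 0.0779) and r of -0.868, -0.909 and -0.911 without the 2 farthest kidneys.

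In HET cisplatin the same 3 genes ran against Arntl, with r of -0.914 for Per3, -0.822 for Nr1d2 and -0.908 for Dbp (exact permutation adjusted p = 0.00937, 0.0352 and 0.0105). Their rho values were -0.976, -0.881 and -0.929 (adjusted p = 0.00714, 0.0435 and 0.0268), and r without the 2 farthest kidneys was -0.941, -0.818 and -0.785. Npas2 followed Arntl there (r = 0.86, rho = 0.833, exact permutation adjusted p = 0.0341 and 0.0692), with r = 0.732 without those 2. Cry1, Per1, Per2, Nr1d1 and Clock passed in none of these 3 groups. Within animals S_600_22 to S_629_22, the 6 WT cisplatin kidneys gave r of -0.935 for Nr1d2 (exact permutation adjusted p = 0.0438), -0.916 for Per3 (0.0821) and -0.9075 for Dbp (0.075), and all 8 HET cisplatin kidneys lie in that range. The level of the proximal tubule markers, the mean log2 CPM of 12 genes, varied from 6.105 to 9.015 in WT cisplatin and from 6.385 to 8.918 in HET cisplatin. Of 20 relations between it and a clock gene, 0 passed. Leaving out the 2 kidneys farthest from the median level moved r in WT cisplatin. It went from -0.27 to -0.937 for Dbp, 0.14 to -0.945 for Nr1d2 and -0.234 to -0.839 for Per3. Arntl went from 0.0323 to 0.694, while Per1 (-0.533 to -0.157) and Cry1 (0.267 to -0.0863) weakened. In HET cisplatin r went from -0.455 to -0.676 for Dbp, -0.159 to -0.382 for Nr1d2, -0.389 to -0.54 for Per3 and 0.429 to 0.702 for Arntl. Nr1d1 (-0.533 to 0.198), Cry1 (0.558 to -0.102) and Per2 (0.394 to -0.32) changed sign there. With 8 kidneys per group, these tests do not show that there is no relation.

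**Figure D4:**
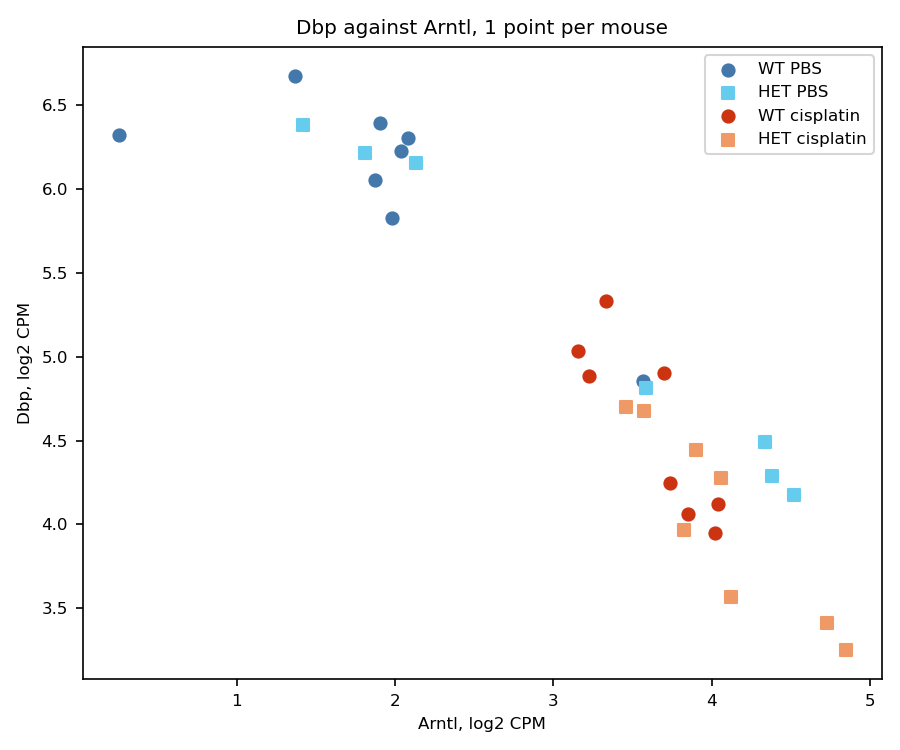
Log2 CPM of Dbp (y axis) against log2 CPM of Arntl (x axis), 1 point per animal, in 4 groups. Most PBS kidneys lie at upper left with Dbp at 56.6 to 102.1 CPM, and 5 PBS kidneys lie with the cisplatin kidneys at lower right, where Arntl minus Dbp runs from -1.99 to 1.6.

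Among 13125 other genes with a mean of at least 1 CPM and a regular symbol (predicted genes, clone names, pseudogenes and mitochondrial genes were left out), those whose log2 CPM, after removal of group means, was most like Arntl over 31 libraries were Dtx4 (r = 0.866), Leo1 (0.818), Slc16a1 (0.802), Tmco4 (0.758) and Nav2 (0.746). The most opposed were Ciart (-0.804), Bhlhe41 (-0.763), Arhgef28 (-0.757), Ccdc6 (-0.714) and Arhgef38 (-0.705). Hspa2 (0.775), Bhlhe41 (0.772), Ciart (0.766), Scai (0.738) and Acpp (0.723) were most like Dbp, and Slc16a1 (-0.829), Leo1 (-0.763), Ltv1 (-0.753), Rrp12 (-0.729) and Dtx4 (-0.711) ran most against it. Among the members, r with Arntl was -0.883 for Dbp, -0.864 for Nr1d2 and 0.872 for Npas2. The points share libraries and depth, and the PBS clusters weigh on these values, so they are a description. Ciart and Bhlhe41 encode repressors of ARNTL and CLOCK activity, and Slc16a1 encodes a lactate transporter.

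Of 12 other genes of the loop, 3 were higher and 5 lower under cisplatin in WT, and 3 were higher and 6 lower in HET. Over all tested genes, 33.6% were called higher and 29.6% lower in WT, and 31% and 28% in HET. Arntl2, a close relative of Arntl, rose from 1.06 ± 0.205 to 3.82 ± 0.685 CPM in WT (SD, 8 animals each), by 1.85 on the log2 scale (SE 0.187, adjusted p = 4.94e-10), and by 1.47 in HET. Bhlhe41 rose by 1.40 in WT and 1.304 in HET, while within groups it ran against Arntl. Timeless, which works in DNA replication in mammals, rose by 0.60 and 0.37, the latter not called among animals S_600_22 to S_629_22 (0.26, adjusted p = 0.105). Tef and Hlf, which share the D-box with DBP, fell by 0.84 and 1.58 in WT and by 0.91 and 1.26 in HET. Rorb, a ROR receptor, fell by 0.96 and 1.18. Ciart fell by 1.17 in WT (adjusted p = 0.0291) and 1.89 in HET (adjusted p = 0.00132). Among animals S_600_22 to S_629_22 it was called in neither, at -1.15 in WT (adjusted p = 0.0544) and -0.22 in HET (adjusted p = 0.741), nor on the TPM scale. Under library totals the counts were 6 higher and 3 lower in WT and 5 and 5 in HET. The medians of this list were -0.05 in WT and -0.35 in HET, against 0.06 over all genes.

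Of 13 genes for turnover of clock proteins and for kinases that act on them, 5 rose and 8 fell in each genotype. Beside this list and the output genes below, 33.6% of all tested genes were called higher and 29.6% lower in WT. In HET these shares were 31% and 28%. Csnk1e, a kinase that marks PER for degradation, rose by 1.20 in WT (SE 0.126, adjusted p = 1.02e-09) and 0.86 in HET, and Fbxw7, a ubiquitin ligase subunit, rose by 0.85 and 0.92. Fbxw11 fell by 0.57 and 0.56, Fbxl21 by 0.88 and 0.77, and Prkaa2, a catalytic subunit of the energy sensor AMPK, by 0.85 and 0.79. Btrc fell by 0.36 and 0.22, but was at 0.03 and 0.18 under library totals, where 7 of the 13 were higher and 4 lower in each genotype. The medians were -0.25 and -0.22. Of 15 output genes, 6 were called higher and 6 lower in WT, with 4 higher and 6 lower in HET. Slc12a3, the salt transporter of the distal convoluted tubule, fell by 1.66 and 1.42, Slc9a3, a proximal sodium-proton exchanger, fell by 1.015 and 0.84, and Por, the reductase of cytochrome P450 enzymes, by 0.56 and 0.48. Cdkn1a, which is also a p53 target, rose by 5.96 and 4.75, Aqp2, the water channel of the collecting duct, by 0.74 and 0.70, and Scnn1a, a sodium channel subunit, by 0.64 in WT, with 0.23 in HET (adjusted p = 0.0882). Library totals gave 6 higher and 4 lower in WT and 7 and 4 in HET, and the medians were -0.16 and -0.30. Several of these genes mark single tubule segments, whose markers moved with treatment as given above, and their part in the counts was not tested.

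Glucocorticoids and temperature set peripheral clocks, and their target genes were read beside the members. Of 9 glucocorticoid response genes, 2 were called higher and 2 lower in WT, with 0 higher and 3 lower in HET. Beside this list and the temperature list below, 33.6% of all tested genes were called higher and 29.6% lower in WT. In HET these shares were 31% and 28%. Fkbp5 rose in WT from 162.5 ± 62.9 to 325.3 ± 73.2 CPM (SD, 8 animals each), by 1.002 on the log2 scale (SE 0.247, adjusted p = 0.000735). The HET difference was -0.17 (adjusted p = 0.59) and turned to 0.23 under library totals. Zbtb16 rose by 1.31 in WT (adjusted p = 0.015, but 0.104 among animals S_600_22 to S_629_22), with 0.11 in HET. Errfi1 fell by 0.64 in WT and 1.04 in HET, and Nr3c1, the glucocorticoid receptor, fell by 0.27 in WT. The WT calls of Errfi1 (-0.80, adjusted p = 0.0608) and Nr3c1 (-0.15, adjusted p = 0.243) were lost among animals S_600_22 to S_629_22, and under library totals Errfi1 was at -0.24 and Nr3c1 at 0.13, neither called. Errfi1 in WT was also lost without the 5 libraries against their Nbl1 label (adjusted p = 0.074). Klf9 (-0.57) and Pdk4 (-1.44) were also called in HET, though not under library totals (adjusted p = 0.316 and 0.0508). Among animals S_600_22 to S_629_22 the list had 1 higher and 0 lower in WT and 0 higher and 5 lower in HET, Fkbp5 among the latter (-0.54, adjusted p = 0.0434). Of 9 temperature response genes, 3 were called higher and 3 lower in WT, with 3 higher and 4 lower in HET. Rbm3 and Cirbp, RNA-binding proteins that are induced by cold, rose by 1.86 and 0.98 in WT and 1.71 and 1.12 in HET. Hspb1 rose by 1.92 and 1.23, while Hsph1 fell by 1.75 and 1.90, Hspa8 by 1.14 and 1.05 and Creld2 by 0.54 and 0.56. Creld2 was not called in either genotype among animals S_600_22 to S_629_22 (adjusted p = 0.0871 and 0.184) or under library totals (0.474 and 0.421). The medians were -0.265 and -0.395 for the glucocorticoid list and -0.325 and -0.592 for the temperature list. Library totals gave 3 higher and 0 lower (WT) and 1 and 1 (HET) for the former, and 3 higher and 2 lower in each genotype for the latter.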

How the data were processed

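Kidney RNA of 31 mice was sequenced as mRNA libraries, and each title carries its own number, read as the animal. The authors deposited expected counts per gene, not normalized, of which 12.52% are not whole numbers, beside TPM and FPKM values (per the file headers). The submitters' processing notes name the tools fastp, STAR and featureCounts, and GRCm38 or mm10 as build. Tool versions, the strand setting and what made counts fractional have no statement in the sources used here. The deposited TPM were used for levels between genes and for 1 alternative, and the deposited FPKM, a constant multiple of TPM to within 0.164%, were not used. RNA with an integrity number over 8 went into KAPA mRNA HyperPrep libraries, per the labels' protocols.

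Expected counts were rounded and tested with edgeR 4.0.16 (R 4.3.3) by its quasi-likelihood test after filterByExpr and scaling by TMM, in a model of 4 group means over all 31 libraries, on 19268 genes. Adjusted p-values are Benjamini-Hochberg values over all 19268 genes in each comparison, called at 0.05. Log2 fold changes used a prior count of 0.125, and log2 CPM used a prior count of 2. The computation was tested on simulated data first. Coordinates of overlapping genes came from GENCODE M21 on GRCm38. Correlations used exact permutation tests (scipy 1.17.1, two-sided). Alternatives were DESeq2 1.42.0, limma 3.58.1 (voom, and log2(TPM + 1)), other scalings and filters, only the groups compared, only animals S_600_22 to S_629_22, that range as a covariate, and each library left out. Leaving out animals S_609_22 to S_619_22, or the 5 libraries that went against their Nbl1 label, or these and WT cisplatin 6, was added after seeing the data. No libraries were identical (0 pairs). The replicate numbers only name samples.

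The text names all 10 members, of each other list the up to 6 genes with the smallest p in the WT comparison, and the 5 genes most and least like Arntl and Dbp. The members and lists were chosen with earlier results of these data known.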

Additional observations from a re-analysis of the deposited data

Results flagged for a closer look

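Of 40 combinations of gene and group that were checked for a single distant sample, 1 stood out: Dbp in the library WT PBS 7 was at 28.9 CPM, the lowest of its group, against 56.6 to 102.1 CPM in the other 7 kidneys. On the log2 CPM scale its gap to the next kidney was 0.533 of the group's range, above the 95% critical value of 0.526. On the CPM scale the gap was 0.379 of the range, below that value. Chance gives such a value in about 1 of 20 groups. This is animal S_609_22, whose Arntl level of 11.8 CPM was the highest of its group. The same kidney also had the highest Cry1 (18.45 CPM) and Npas2 (3.84 CPM) and the lowest Nr1d2 (133 CPM) and Nr1d1 (22.9 CPM) of WT PBS.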

How the results depend on the processing

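No paired analysis was possible because the replicate numbers only name samples within a group, and no label ties animals across groups. For the cisplatin comparisons, the library totals scaling gave 11831 (WT) and 11992 (HET) genes higher and 2862 and 2400 lower, and log2(TPM + 1) gave 12055 and 12321 higher and 2439 and 1983 lower. Of the clock genes, library totals called 5 higher and 1 lower in WT and 4 and 1 in HET, and TPM called 5 and 1 in WT and 4 and 0 in HET. With limma voom 1 clock gene, Arntl, was called higher in HET. Without animals S_609_22 to S_619_22, 3 were higher there (no test, since those animals were chosen by these genes). Among animals S_600_22 to S_629_22, 0 were lower in HET. Between genotypes under PBS, DESeq2 called 3 genes higher and 2 lower, and 2 were higher without the 5 libraries whose Nbl1 level went against the label, or without these and WT cisplatin 6. Under cisplatin, 1 gene was lower with voom and 1 without those 5 or 6 libraries. Without the 5, the counts of several other lists moved too. In HET, 0 fat markers were higher, and 1 kidney marker was higher and 5 lower. There, 7 macrophage markers were higher and 1 lower, and 4 turnover genes and kinases were higher and 8 lower. Output genes had 3 higher and 5 lower in HET, and temperature response genes 3 and 3. In WT, 3 glucocorticoid response genes were higher and 1 lower. With each library left out, the PBS genotype count of higher genes ran from 0 to 2 (2 without WT PBS 8, 1 without WT PBS 6 or 7 or HET PBS 5 or 6), the WT clock genes from 3 to 4 higher and 2 to 3 lower, and the HET clock genes from 0 to 0 higher and 3 to 4 lower. The relations of Arntl that passed numbered 15 of 36, against 5 of 36 on the TPM scale. Of the 15, 7 came from HET PBS, where no correlation is given above because of its 2 clusters. Among animals S_600_22 to S_629_22 only the 2 cisplatin groups were tested, and 5 of 18 relations passed. With all animals, 3 of 9 had passed in WT cisplatin and 4 of 9 in HET cisplatin.

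Counted over the cisplatin comparisons of all 10 genes and the genotype values with an unadjusted p under 0.05 or printed above, 1197 values of single clock genes under alternatives stayed on the same side of the threshold with the same sign, 30 newly passed, 13 no longer passed and 35 changed sign. A value that changed sign was counted only as such, whether or not it passed. Clock in HET is 1 that passed, under library totals (edgeR adjusted p = 1.7e-06) and on the TPM scale (limma adjusted p = 8.42e-11). Other genotype and interaction values, none of them called, are outside this count, and some changed sign, as Cry1 between genotypes under cisplatin did with the covariate (-0.0447). The sign changes counted, as log2 values, were these. Without animals S_609_22 to S_619_22 the Arntl interaction was 0.121. Voom gave Per2 0.0218 (WT) and Per1 0.196 (HET). Library totals gave Per3 0.0754 and Per2 0.223 in WT, and Nr1d1 0.121, Per1 0.386, Clock 0.363 and Per2 0.00811 in HET. TPM gave Nr1d1 0.00588, Nr1d2 0.0095, Per3 0.112 and Per2 0.286 in WT, and Nr1d1 0.195, Per1 0.70, Clock 0.521 and Per2 0.0702 in HET. Both scalings also move the median of all genes upward. Keeping animals S_600_22 to S_629_22 gave Nr1d1 0.00267 in WT, and Cry1 -0.137, Nr1d1 0.332, Per1 0.755, Npas2 -0.147 and Arntl -0.109 in HET. The number range as a covariate gave Cry1 -0.0728 and Nr1d1 0.184 in HET. In HET, Clock was 0.061 without animals S_609_22 to S_619_22 and 0.00196 and 0.00204 without the 5 or 6 libraries, and leaving out 1 library gave Per1 from -0.16 to 0.145 and Clock from -0.0652 to 0.0128. Per3 in HET also missed the threshold with the covariate (-0.37, adjusted p = 0.0559), under library totals and on the TPM scale. Dbp in HET missed it on the TPM scale (-0.64, adjusted p = 0.0678). The causes were not tested.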
